A study of Mus musculus with 11 samples.

Results

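Hedgehog pathway genes were examined in the pubertal mouse mammary gland, with the 2 Ellis-van Creveld genes Evc and Evc2 that act in the same pathway. The set holds 10 of the 27179 gene identifiers in the count table: the ligand gene Ihh, the receptor gene Ptch1, the co-receptor genes Gas1 and Boc, the transducer gene Smo, the ciliary genes Evc and Evc2, and the transcription factor genes Gli1, Gli2 and Gli3. They were taken by symbol from a given list, and all 10 were found through their Entrez identifiers. Evc was chosen by its measured level, which was higher in luminal cells of terminal end buds than in those of ducts, so its luminal values are given as a description and without a test.

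The libraries came from C57BL/6 females aged 5 weeks that carried an E-cadherin-GFP knock-in, an allele shared by all groups. Terminal end buds (TEBs), the club-shaped growing tips of the ductal tree, were dissected apart from the ducts behind them under GFP fluorescence. Lin-CD29+CD24+ cells, a gate meant to remove blood and endothelial cells, were then sorted into a luminal population with high GFP and a basal population with low GFP. RNA-seq gave 3 libraries each for basal duct, basal TEB and luminal TEB and 2 for luminal duct (replicates 1 and 3). Each library was a pool of at least 2 mice, and p-values measure the spread between such pools.

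Hedgehog ligands relieve the block that the receptor Patched places on Smoothened. Smoothened then signals inside the primary cilium, and GLI factors are released from repression to switch on targets that include Gli1 and Ptch1 themselves. EVC and EVC2 form a complex at the base of the cilium that relays the signal from Smoothened to the GLI factors, while GAS1, BOC and CDON help to present the ligand. In the mammary gland, hedgehog activity is known mainly for the need to keep it repressed in the early bud and for signalling to the stroma.

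The libraries held 27989137 to 49221436 assigned read pairs. The mitochondrial share of counts was 37.5% in basal TEB replicate 1, 17.8% in basal TEB replicate 3 and 28.5% in luminal duct replicate 3, against 4.34% to 10.9% in the other libraries. The summed level of 7 basal markers was 5342 to 19176 CPM (counts scaled by library size) in basal libraries and 14.7 to 248 in luminal libraries, and that of 9 luminal markers was 12747 to 19451 in luminal libraries and 335 to 679 in basal ones, so the labelled populations held their markers. The summed level of 12 fibroblast markers was 540 to 944 CPM in basal duct, 447 to 621 in basal TEB and 12.7 to 55.9 in luminal TEB. The luminal duct libraries stood far apart in this sum, at 6.37 CPM in replicate 1 and 280.4 in replicate 3. Up to 4 of the 12 fibroblast markers were at 0 in a library, with Pdgfrb at 0 in basal TEB replicate 1 and luminal duct replicate 1.

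Evc and Evc2 lie head to head on mouse chromosome 5 (GRCm38.p6). Evc spans chr5:37288970-37336947 on the minus strand and Evc2 spans chr5:37338478-37425055 on the plus strand. The RefSeq start site used for the Evc window is 37336881, which lies inside the gene bounds and 1597 bases from the Evc2 start. The 250 bases before each start site are shown because the levels of the pair are compared below. They are from RefSeq on GRCm38.p6 and are written in the direction of transcription, at chr5:37336882-37337131 (minus strand) for Evc and chr5:37338228-37338477 (plus strand) for Evc2.
Evc: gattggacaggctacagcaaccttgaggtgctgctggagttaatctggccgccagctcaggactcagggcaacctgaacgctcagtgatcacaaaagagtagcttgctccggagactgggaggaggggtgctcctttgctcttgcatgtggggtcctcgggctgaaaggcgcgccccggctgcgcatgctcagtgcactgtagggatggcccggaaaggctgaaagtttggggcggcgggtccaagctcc
Evc2: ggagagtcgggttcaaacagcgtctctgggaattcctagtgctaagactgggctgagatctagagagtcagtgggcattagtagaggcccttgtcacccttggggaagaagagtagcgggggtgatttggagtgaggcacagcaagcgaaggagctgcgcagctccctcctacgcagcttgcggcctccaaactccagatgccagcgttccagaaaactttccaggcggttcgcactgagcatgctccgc
G and C made up 60.8% of the Evc window and 57.2% of the Evc2 window. The letters TGGGTGG, the core of the GLI binding site, were searched on both strands. None of the 8 member windows held them, while 8.2% of the 27025 windows in the table did. Gli1 and Boc had no window and were not searched. For that reason no base is in capitals, and the absence says only that these letters are not in these windows.

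The 3' end of Evc runs into Crmp1, a gene for a neuronal cytoplasmic phosphoprotein on the other strand. Crmp1 lies at chr5:37242058-37292163, so 3194 bases of the gene bounds overlap, although the GENCODE M21 exons of Evc and Crmp1 share 0 bases. The library kit did not mark strand, so reads in the overlap could not be told apart by strand. Crmp1 had 0 counts in all basal duct and luminal duct libraries. It had 0, 22 and 53 counts in basal TEB and 0, 1 and 0 in luminal TEB. The Evc level in luminal TEB, with 2428 counts over 3 libraries, therefore stood beside a single Crmp1 count. The other neighbours were also sparse: Cytl1 had 0 counts in the 11 libraries, Stk32b at most 4, Jakmip1 at most 16 and Msx1 at most 72 counts over a group.

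Evc was high in both basal groups, low in luminal TEB and lowest in luminal duct. Its level was 46.7, 61.2 and 62.7 CPM in basal duct and 77.5, 53.8 and 52.1 CPM in basal TEB. It was 13.1, 16.9 and 18.4 CPM in luminal TEB and 3.00 and 1.32 CPM in luminal duct. The basal groups overlapped, and each luminal group stood apart from every other group. These are levels in sorted bulk populations, in which fewer cells of a type and less RNA per cell cannot be told apart.

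The fitted Evc level in luminal TEB was 7.35-fold that of luminal duct (log2 difference 2.88, SE 0.38), the contrast for which it was chosen. The rule used this luminal TEB level, so the differences that rest on it or on luminal duct carry no test. Across 24 other ways of processing the counts the same log2 difference lay between 2.42 and 3.62. This range and the SEs of the untested differences are descriptions and lend the choice of Evc no support. Without basal TEB replicate 1 and luminal duct replicate 3, the libraries with the highest mitochondrial shares, it was 2.44. It was 3.62 without luminal duct replicate 1 and 2.42 without luminal duct replicate 3. Basal duct was 25.9-fold luminal duct (log2 difference 4.69, SE 0.41, and 5.43 without luminal duct replicate 1), and basal TEB was 3.78-fold luminal TEB (log2 difference 1.92, SE 0.30). Between basal TEB and basal duct, which the rule did not use, the log2 difference was 0.10 with an SE of 0.29, well inside the spread between libraries (adjusted p = 0.922, quasi-likelihood test of edgeR, Benjamini-Hochberg adjustment). 

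Evc2, the partner gene, was likewise higher in the basal groups and lowest in luminal duct, over a much narrower range. Its level was 69.1, 49.7 and 66.7 CPM in basal duct and 63.4, 49.7 and 47.1 CPM in basal TEB. It was 34.6, 41.0 and 39.6 CPM in luminal TEB and 33.4 and 21.2 CPM in luminal duct. The luminal duct libraries were the lowest, but replicate 1 lay close under the lowest luminal TEB library. The log2 difference between luminal TEB and luminal duct was 0.49 (SE 0.25, adjusted p = 0.352), and that between basal TEB and basal duct was −0.21 (SE 0.22, adjusted p = 0.718).

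Within each library, the Evc count per base of counted length was divided by that of Evc2, a ratio in which library size cancels. The ratio was 0.645, 1.17 and 0.897 in basal duct and 1.17, 1.03 and 1.05 in basal TEB. It was 0.362, 0.393 and 0.443 in luminal TEB and 0.0858 and 0.0591 in luminal duct. The basal libraries thus held the pair at like levels per base, with a mean ratio of 0.905 ± 0.264 (SD, n = 3) in duct and 1.08 ± 0.0712 (SD, n = 3) in TEB. Luminal TEB had a mean ratio of 0.399 ± 0.0411 (SD, n = 3) and luminal duct 0.0725 ± 0.0189 (SD, n = 2). The order among the luminal libraries is a description, since it rests on the Evc values by which the gene was chosen.

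**Figure D1:**
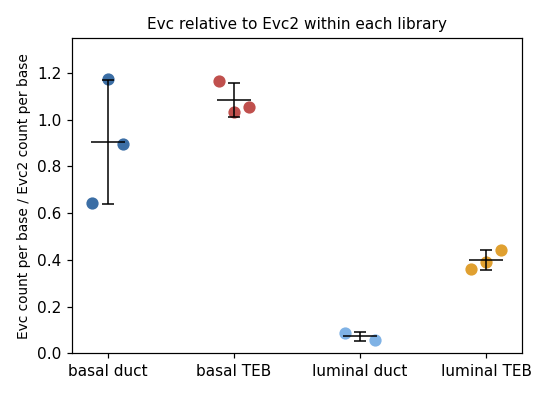
Ratio of the Evc count per base to the Evc2 count per base (y axis, no unit) in each library, by group (x axis); points are libraries, and bars are the mean and SD. The luminal duct libraries sit at 0.0591 and 0.0858, the luminal TEB libraries between 0.362 and 0.443, and the basal libraries between 0.645 and 1.17.

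Ihh, the only ligand gene of the set, was at the edge of detection. It had 12 counts in basal duct replicate 3, 19 in basal TEB replicate 2, and 13 and 6 in luminal TEB replicates 1 and 3, and 0 in the other 7 libraries. No group therefore held it in every library, and the highest level was 0.40 CPM. None of its comparisons passed the test, with adjusted p from 0.343 to 0.998 in the 4 comparisons of groups. No fold is given for so few counts.

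Ptch1, which encodes the receptor and is itself a target of the pathway, was low in all groups and varied most among the basal duct libraries. Its level was 10.3, 3.605 and 18.6 CPM in basal duct and 6.41, 12.7 and 7.70 CPM in basal TEB. It was 11.8, 9.81 and 11.1 CPM in luminal TEB and 4.80 and 3.17 CPM in luminal duct. The luminal groups did not overlap, whereas the basal groups did. The log2 difference of luminal TEB over luminal duct was 1.45 with an SE of 0.68, which did not pass the test over all genes (adjusted p = 0.311). In basal cells it was −0.28 with an SE of 0.58 (adjusted p = 0.885), and its sign turned to 0.36 without basal duct replicate 3, the library with the highest level.

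Gas1, a membrane-anchored co-receptor gene, differed most between the cell types and was also the only member called between basal TEB and basal duct. Its level was 362, 354 and 459 CPM in basal duct and 98.1, 139 and 117 CPM in basal TEB. It was 2.40, 4.53 and 3.31 CPM in luminal TEB and 3.596 and 7.81 CPM in luminal duct. All basal duct libraries lay above all basal TEB libraries, and both far above the luminal ones, where the groups overlapped. Gas1 was 3.32-fold lower in basal TEB than in basal duct (log2 difference −1.73, SE 0.29, adjusted p = 0.0150).

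That made 1 of 9 tested members called in basal TEB against basal duct, where 1.32% of all 17370 genes tested were called. The libraries did not overlap for 3 of the 9, Gas1, Boc and Gli2, as was so for 20.8% of all genes. The call was lost without basal TEB replicate 1 (log2 difference −1.61, adjusted p = 0.0657) and without basal TEB replicate 3 (−1.73, adjusted p = 0.0983). It held without both basal TEB replicate 1 and luminal duct replicate 3 (−1.61, adjusted p = 0.0190), and the difference was −1.91 to −1.60 over all 25 alternatives. The summed fibroblast markers were 540 to 944 CPM in basal duct and 447 to 621 in basal TEB, and the summed basal markers 15553 to 19176 and 5342 to 8297. The basal marker sums lay lower in all basal TEB libraries, as Gas1 did. The fibroblast sums overlapped, and Fbln1 and Dcn, large parts of them, went opposite ways. Fbln1 was higher in basal TEB, at 194 to 248 CPM against 46.7 to 158 in basal duct. Dcn was lower in all basal TEB libraries, at 113 to 160 CPM against 205 to 399. Of the 12 fibroblast markers 0 were called, against 1.32% of all genes, and the fitted difference was above 0 for 2. Their median log2 difference was −0.97, against −0.03 over all genes, so most of them had the sign of Gas1. The part of both marker sets in the result was not tested.

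Boc, a co-receptor gene of the immunoglobulin superfamily, had the same order of groups as Gas1. Its level was 327, 253 and 269 CPM in basal duct and 158, 190 and 169 CPM in basal TEB. It was 23.9, 34.0 and 19.0 CPM in luminal TEB and 38.5 and 67.1 CPM in luminal duct. In both cell types the TEB libraries lay below all duct libraries. The log2 difference was −0.71 (SE 0.25, adjusted p = 0.217) in basal cells and −1.04 (SE 0.27, adjusted p = 0.0841) in luminal cells, and neither passed the test.

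The luminal difference of Boc depended on which luminal duct library was used. Without luminal duct replicate 1 it was −1.39 (adjusted p = 0.0150), and without luminal duct replicate 3 it was −0.59 (adjusted p = 0.481). Luminal duct replicate 3 had the higher Boc and Gas1 level of the pair, the higher sum of basal markers (248 CPM against 93.0) and the higher sum of fibroblast markers. Trp63 alone among the basal markers went the other way, at 0.206 CPM in replicate 3 and 3.44 in replicate 1. Among the fibroblast markers Fbln1 did so, at 0.0822 and 0.319 CPM. The part of other cells in the luminal values was not tested. DESeq2's Wald test called the luminal difference (log2 difference −1.12, adjusted p = 0.00851), as did edgeR's likelihood ratio test (adjusted p = 0.0162).

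Smo was among the most even members. Its level was 111, 80.5 and 131 CPM in basal duct and 97.1, 123 and 112 CPM in basal TEB. It was 78.5, 78.1 and 86.4 CPM in luminal TEB and 60.2 and 84.0 CPM in luminal duct. TEB and duct libraries overlapped in both cell types, with a log2 difference of 0.04 (SE 0.20, adjusted p = 0.961) in basal cells and 0.17 (SE 0.23, adjusted p = 0.752) in luminal cells.

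Of the GLI factors, only Gli3, which acts mainly as a repressor of hedgehog targets, was well measured. Its level was 68.2, 48.1 and 64.2 CPM in basal duct and 61.9, 74.6 and 70.9 CPM in basal TEB. It was 39.7, 36.3 and 42.2 CPM in luminal TEB and 27.8 and 20.3 CPM in luminal duct. The luminal TEB libraries lay above both luminal duct libraries, and the basal groups overlapped. The log2 difference between TEB and duct was 0.71 (SE 0.23, adjusted p = 0.146) in luminal cells and 0.20 (SE 0.20, adjusted p = 0.696) in basal cells.

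Gli2, the main activator of the pathway, and Gli1, its target and amplifier, were nearly absent from the counts. Gli2 had 71, 48 and 39 counts in the basal duct libraries, 24 in basal TEB replicate 2, 41 in luminal duct replicate 1 and 5 in luminal TEB replicate 3, and 0 in the other 5 libraries. Basal duct was thus the only group with Gli2 in every library, but its difference from basal TEB did not pass the test (adjusted p = 0.640). Gli1 had 10 counts in basal duct replicate 3, 9 in basal TEB replicate 2, 8 in luminal TEB replicate 2 and 0 in the other 8 libraries. It was the 1 member that did not pass the filter on low counts and was not tested, and 62 of its exon bases are shared with Arhgap9.

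**Figure D2:**
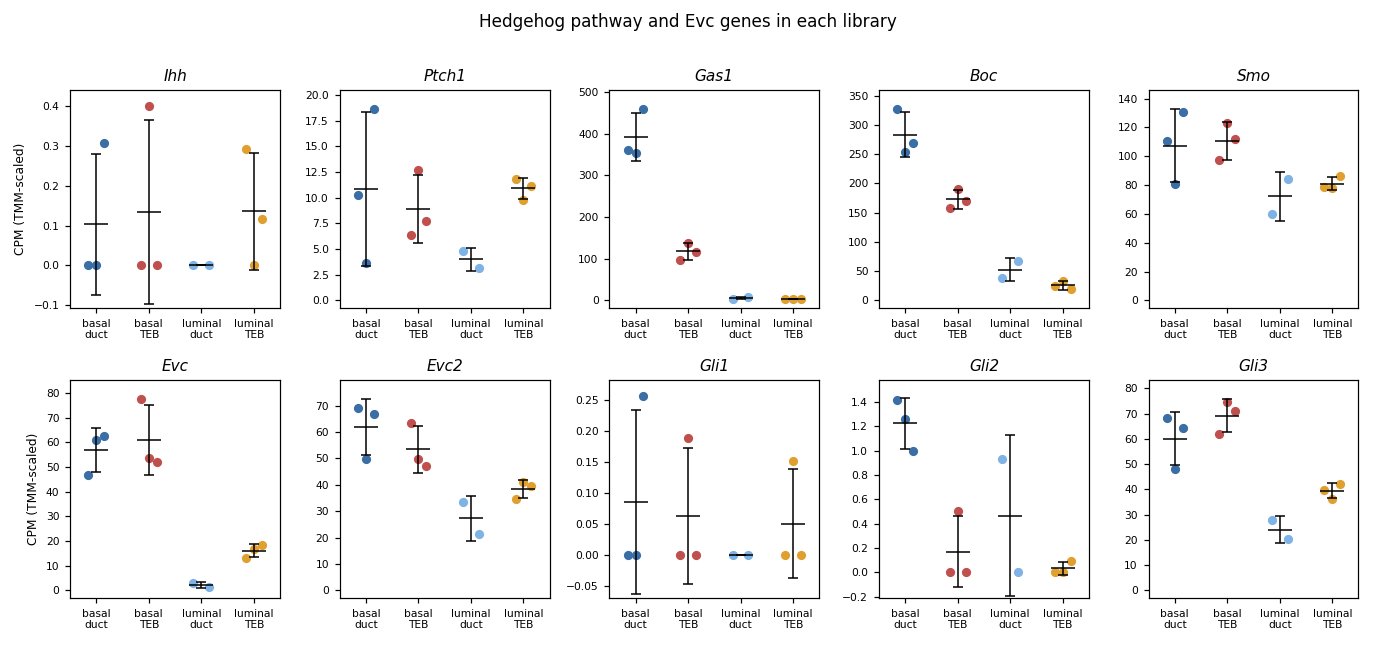
Level of each of the 10 genes in CPM (y axis, linear, a scale of its own in each panel) in the 11 libraries, by group (x axis); points are libraries, and bars are the mean and SD. Gas1 and Boc fall from basal duct to basal TEB to the luminal groups, Evc is at 13.1 to 18.4 CPM in luminal TEB and 1.32 to 3.00 in luminal duct, and Ihh, Gli1 and Gli2 stay under 1.5 CPM.

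Genes can be ranked against each other only per length. In basal duct the mean level per kilobase of counted length was 125 CPM for Gas1, 63.9 for Boc, 27.0 for Smo, 15.04 for Evc2, 13.2 for Evc, 7.14 for Gli3 and 2.52 for Ptch1, with Gli2 at 0.183, Ihh at 0.0420 and Gli1 at 0.0234. Evc and Evc2 could not be ordered beyond their spread there (SD 2.05 and 2.57 CPM per kilobase). In basal TEB, Boc at 39.0 and Gas1 at 37.7 CPM per kilobase led and could not be ordered either (SD 3.64 and 6.48).

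The luminal groups had another order. In luminal TEB, Smo led with 20.4 CPM per kilobase, followed by Evc2 with 9.34, Boc with 5.78, Gli3 with 4.68, Evc with 3.74, Ptch1 with 2.53 and Gas1 with 1.09. Boc (SD 1.72) and Gli3 (SD 0.356) were within their spread of each other. In luminal duct the order was Smo with 18.1, Boc with 11.9, Evc2 with 6.64, Gli3 with 2.85, Gas1 with 1.82, Ptch1 with 0.926 and Evc with 0.501 CPM per kilobase. With 2 libraries, the ranges of Smo and Boc overlapped there, as did those of Gli3 and Gas1. Evc was thus the last of the 7 well-measured members in luminal duct, and Gas1 the last in luminal TEB.

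In luminal TEB against luminal duct, 0 of the 8 members tested apart from Evc were called by edgeR's quasi-likelihood test, where 1.41% of all genes were called. The groups did not overlap for 4 of the 8 (Evc2, Ptch1, Gli3 and Boc), against 43.7% of all genes. At an unadjusted p under 0.05 there were 2 members, Gli3 and Boc, against 16.6% of all genes, and DESeq2 and edgeR's likelihood ratio test each called 1, Boc, where they called 7.35% and 5.79% of all genes. The difference of the TEB against duct change between the cell types was called for 0 of 8 members, against 0.443% of all genes, and DESeq2 and the likelihood ratio test also called 0. The 1 member with an unadjusted p under 0.05 there was Gas1, against 14.7% of all genes (log2 difference of the changes −1.01, SE 0.44, adjusted p = 0.318). For Evc the same value was −2.77 (SE 0.47), without a test, and −3.51 without luminal duct replicate 1.

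Basal and luminal cells differed in more members than TEB and duct did. In ducts, 4 of 8 tested members were higher in basal cells and 0 lower, where 12.6% of all genes were called higher and 9.71% lower (22.3% in all). Gas1 was 69.4-fold higher (log2 difference 6.12, SE 0.43, adjusted p = 2.84e-06) and Boc 5.37-fold (2.42, SE 0.30, adjusted p = 0.000126). Gli3 was 2.498-fold higher (1.32, SE 0.23, adjusted p = 0.00139) and Evc2 2.26-fold (1.18, SE 0.26, adjusted p = 0.00629). The libraries did not overlap for 5 of the 8, these 4 and Gli2, against 46% of all genes. Smo (log2 difference 0.57, SE 0.23, adjusted p = 0.0986) and Ptch1 (1.44, SE 0.68, adjusted p = 0.154) were not called.

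In TEBs, 3 of the 8 members were higher in basal cells and 0 lower, where 13.2% of all genes were called higher and 11.8% lower (25.1% in all). Gas1 was 34.5-fold higher (log2 difference 5.11, SE 0.34, adjusted p = 8.25e-07), Boc 6.74-fold (2.75, SE 0.26, adjusted p = 1.15e-05) and Gli3 1.75-fold (0.81, SE 0.20, adjusted p = 0.0102). Evc2 (log2 difference 0.47, SE 0.22, adjusted p = 0.150) and Smo (0.45, SE 0.20, adjusted p = 0.134) were not called. The libraries did not overlap for 5 of the 8, those called and Evc2 and Smo, against 49.8% of all genes. Ptch1 was at −0.29 (SE 0.58, adjusted p = 0.769) with overlapping libraries.

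Most of these calls held when libraries were left out. Those of Gas1 and Boc held under all 25 alternatives in both structures, and so did that of Gli3 in ducts. The Gas1 difference in ducts was 5.65 without luminal duct replicate 1 and 6.76 without luminal duct replicate 3. The Evc2 call in ducts was lost without luminal duct replicate 3 (log2 difference 0.89, adjusted p = 0.0556), and the Gli3 call in TEBs without luminal TEB replicate 2 (0.74, adjusted p = 0.0605) and with library size alone as the scaling (0.42, adjusted p = 0.403). Smo in ducts was called without basal duct replicate 2 (0.74, adjusted p = 0.0315), and so was Ptch1 (1.86, adjusted p = 0.0456). Smo in TEBs was called by limma voom with quality weights (0.49, adjusted p = 0.0162) and when only the groups compared were fitted (0.47, adjusted p = 0.0255). The summed fibroblast markers were higher in basal cells. In both structures 2 of the 12, Dcn and Fbln1, were called higher there, where 12.6% of all genes were in ducts and 13.2% in TEBs. The fitted difference was above 0 for 10 of the 12 in ducts and all 12 in TEBs. Thy1, Lum and Mfap5 were highest in luminal duct replicate 3, at 10.5, 6.46 and 3.17 CPM. Col1a1, Col1a2 and Col3a1 in that library, at 43.6, 47.0 and 123 CPM, lay within the range of the basal duct libraries. Dcn and Fbln1 there lay below all basal libraries. The part of the fibroblast markers in the results was not tested.

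**Figure D3:**
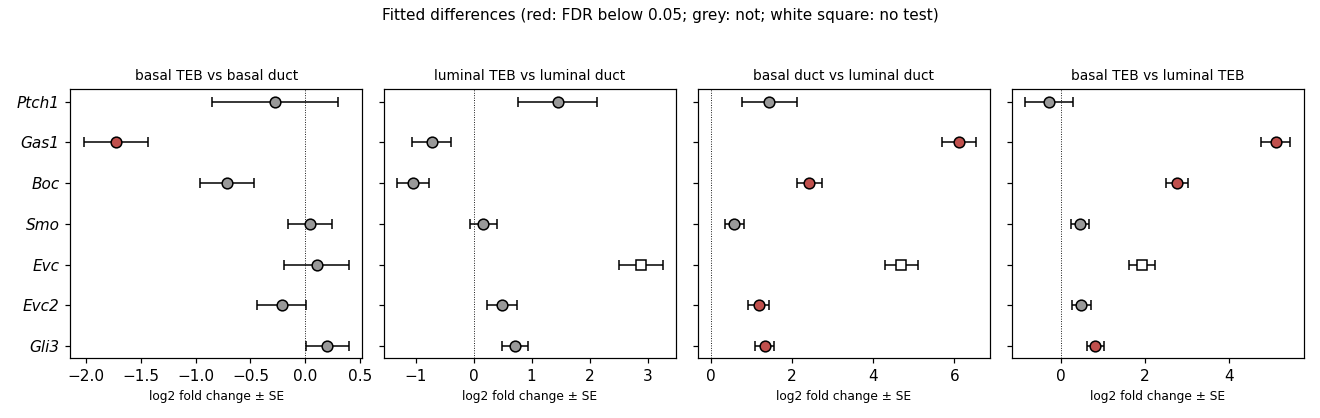
Fitted log2 fold change with its SE (x axis) for the 7 well-measured members (y axis) in 4 comparisons, with the first-named group over the second; red points passed the test, grey points did not, and white squares were not tested. Gas1 is the only red point between basal TEB and basal duct (−1.73), there is none between luminal TEB and luminal duct, and Gas1, Boc and Gli3 are red in both comparisons of basal with luminal cells.

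The rest of the pathway was described from a list of 28 other ligand, receptor and transducer genes, of which 26 passed the filter (Shh and Disp2 did not). In basal TEB against basal duct 0 of 26 were called (1.32% of all genes), with 5 at an unadjusted p under 0.05 (14.5% of all genes), and 2, Gpc3 and Scube3, were called by DESeq2 (5.03% of all genes) and by edgeR's likelihood ratio test (4.07% of all genes). Their median log2 difference was −0.04, against −0.03 over all genes. In luminal TEB against luminal duct 1 was called (1.41% of all genes), and it was higher. The median there was 0.42 (0.26 with genes absent from a group set at their bound), against 0.04 over all genes.

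The called gene was Gpr161, which encodes a ciliary receptor that restrains hedgehog signalling. It had 67, 38 and 96 counts in luminal TEB and 0 in both luminal duct libraries, and 0.72 to 1.85 CPM in luminal TEB. Its mean level in luminal TEB was 30.9-fold a floor of 3 counts over the luminal duct group (adjusted p = 0.0264 for the difference, quasi-likelihood test). The floor covers counting error only and takes no account of the spread between the 2 luminal duct libraries. The basal libraries held more, at 5.31 to 10.7 CPM in duct and 4.28 to 20.95 CPM in TEB, with overlap between them. The luminal call was lost in 8 of 25 alternatives, among them those without luminal duct replicate 3 (adjusted p = 0.0722), luminal TEB replicate 1 (0.0730) and luminal TEB replicate 3 (0.0855). The adjusted p ranged from 4.35e-05 to 0.235.

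Between the cell types, 8 of the 26 were higher and 2 lower in basal duct than in luminal duct (12.6% and 9.71% of all genes), and 7 were higher and 2 lower in basal TEB than in luminal TEB (13.2% and 11.8% of all genes). The median log2 difference was 0.51 in ducts and 0.24 in TEBs, against 0.08 and 0.04 over all genes. The genes that differed most were surface and secreted proteins found almost only in the basal libraries. Gpc3, a glypican that competes for hedgehog ligands, was at 38.5 to 104 CPM in basal duct and 147 to 199 CPM in basal TEB. It had 0 counts in luminal duct and 43 in luminal TEB. Its mean level in basal duct was 1573-fold the luminal duct floor, which covers counting error only (adjusted p = 3.13e-06 for the difference, quasi-likelihood test). In TEBs the log2 difference was 9.22 (SE 0.49, adjusted p = 4.59e-07).

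Scube3, which encodes a secreted protein of a family that helps to release the ligand, was at 12.3 to 50.3 CPM in basal duct and 0.115 to 5.60 CPM in basal TEB, with 2 counts in luminal duct. Its basal duct level was 1420 times that of luminal duct, with a 95% counting interval of 393 to 11727 and an adjusted p of 0.00200. The basal groups did not overlap for Scube3, and their difference was not called by edgeR's quasi-likelihood test (log2 difference −3.70, SE 1.08, adjusted p = 0.142) but was by edgeR's likelihood ratio test (adjusted p = 0.0299) and DESeq2 (adjusted p = 0.00547).

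Cdon and Grk2 had the opposite sign. Cdon, the relative of Boc and a co-receptor like it, was at 94.1 and 96.6 CPM in luminal duct and 62.7 to 77.0 CPM in luminal TEB. It was at 31.8 to 41.5 CPM in basal duct and 19.7 to 30.01 CPM in basal TEB. It was lower in basal cells by −1.38 on the log2 scale in ducts (SE 0.22, adjusted p = 0.000693) and −1.40 in TEBs (SE 0.20, adjusted p = 0.000281). The co-receptor genes were thus divided, with Gas1 and Boc higher in basal cells and Cdon higher in luminal cells. Grk2, which encodes a kinase that acts on Smoothened, was at 53.7 to 77.5 CPM in the basal and 145 to 160.4 CPM in the luminal libraries, a log2 difference of −1.27 in ducts (SE 0.18, adjusted p = 0.000260) and −1.35 in TEBs (SE 0.16, adjusted p = 7.02e-05). Among the genes called in addition, named after their values were seen, were Disp1, Kif7 and Tulp3 in both structures and Hhat in ducts, all higher in basal cells. Gpr161 was called higher in basal cells in both structures.

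Of 32 genes of the primary cilium, all of which were tested, 0 were called in basal TEB against basal duct (1.32% of all genes). There were 3 at an unadjusted p under 0.05 (14.5% of all genes), and DESeq2 called 1 (5.03% of all genes). In luminal TEB against luminal duct 1 was called (1.41% of all genes). That gene was Cep290, which encodes a protein of the gate at the base of the cilium. It was at 83.2, 83.0 and 81.0 CPM in luminal TEB and 37.2 and 29.0 CPM in luminal duct, without overlap. The log2 difference was 1.31 (SE 0.22, adjusted p = 0.0191), and the call was lost without luminal duct replicate 3 (1.15, adjusted p = 0.0777), without luminal TEB replicate 1 (1.28, adjusted p = 0.0890), replicate 2 (1.30, adjusted p = 0.0796) or replicate 3 (1.31, adjusted p = 0.102), and with library size alone (1.68, adjusted p = 0.0954).

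Basal libraries held less Cep290, at 18.7 to 25.2 CPM in duct and 26.0 to 29.9 CPM in TEB. It was lower than in luminal cells by −1.59 on the log2 scale in TEBs (SE 0.20, adjusted p = 8.25e-05) and −0.65 in ducts (SE 0.21, adjusted p = 0.0462), the latter called in 10 of 25 alternatives. Between the cell types, 6 of the 32 cilium genes were higher and 1 lower in basal cells of ducts (12.6% and 9.71% of all genes), and 3 were higher and 2 lower in TEBs (13.2% and 11.8% of all genes). In total this was no larger a share than over all genes in either structure. The median log2 difference was 0.27 in ducts and −0.07 in TEBs. Over all genes these medians were 0.08 and 0.04.

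**Figure D4:**
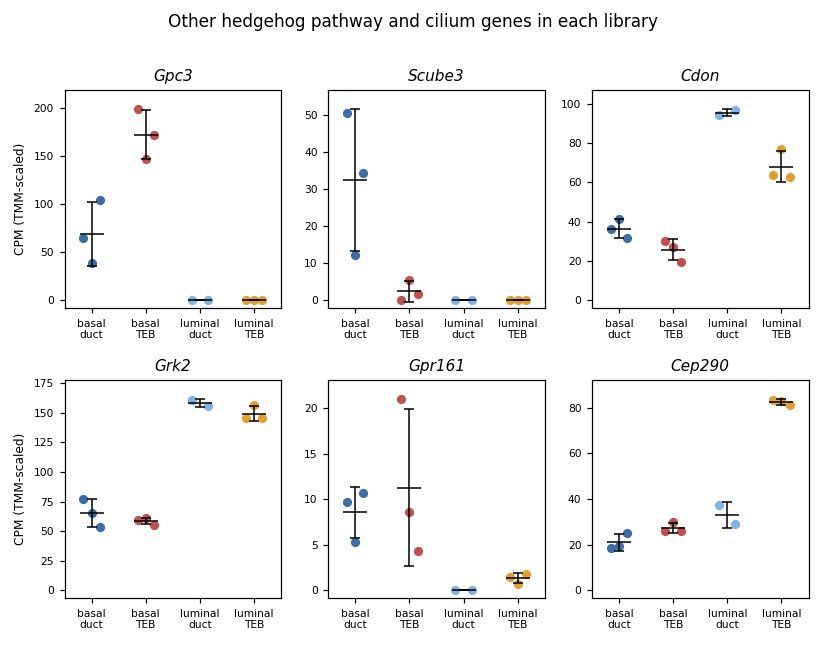
Level of 6 other hedgehog pathway and cilium genes in CPM (y axis, linear, a scale of its own in each panel) in the 11 libraries, by group (x axis); points are libraries, and bars are the mean and SD. Gpc3 and Scube3 are near 0 in the luminal groups, Cdon and Grk2 are higher there, and Cep290 is at 81.0 to 83.2 CPM in luminal TEB against 18.7 to 37.2 in the other groups.

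The genes whose log2 CPM followed a member most closely over the 11 libraries were also looked up, as a description. The libraries share their groups, so a like pattern mostly means a like order of the 4 groups. Evc was followed most closely by Galnt4 (Pearson's r = 0.98 over 11 libraries), Eml1 (0.98), Insyn1 (0.98), Ppp4r1 (0.98) and Dvl2 (0.98), out of 10370 genes. Of these, Eml1 had group means of 38.9 CPM in basal duct, 24.9 in basal TEB, 4.86 in luminal TEB and 0.285 in luminal duct. Gli3 was followed by Trim28 (0.99), Pard3 (0.98) and Mvb12b (0.98), and Gas1 by Pros1, Egfr and Ptpre, whose r rounded to 1.00, 1.00 and 0.99. Ptch1 was followed less closely, by Prpf8 (0.93), Srebf2 (0.91) and Anapc1 (0.90). No such genes are given for Ihh, which had counts in 4 libraries only.

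Among the members themselves, Gas1 and Boc were the most alike (r = 0.98 over 11 libraries), followed by Evc with Gli3 (0.94) and Evc with Evc2 (0.91). Ptch1 had little in common with the co-receptor genes, at 0.13 with Gas1 and 0.02 with Boc. Its r with Evc was 0.49.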

How the data were processed

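The authors sequenced RNA of sorted mouse mammary cells in 11 libraries, made with a kit that does not mark strand (TruSeq RNA v2) and read as 80 bp pairs. Reads were aligned to mm10 and counted per Entrez gene by the authors with Rsubread (featureCounts), and the deposited values are raw counts. The setting for reads in overlapping genes was not given in the sources used here. The per-library and series tables held the same values, with 0 differing.

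Genes were kept by filterByExpr (minimum count 10, minimum total 15), which left 17370, and scaled by TMM. One fit of the 4 groups with edgeR 4.0.16 in R 4.3.3 gave quasi-likelihood tests, with Benjamini-Hochberg adjustment over all genes tested and a threshold of 0.05. The SE was found by dividing the log2 difference by the root of F. CPM used TMM-scaled library sizes, and counting intervals and floors (3 counts over a group) cover counting error only. On simulated counts with 200 changed genes the fit recovered 60% of them for basal TEB against basal duct. It recovered 55% for basal duct against luminal duct. The changes put in were larger than the TEB against duct difference of every well-measured member that was tested. How recovery varied with the size of a difference was not tested. These shares therefore do not apply to those differences, or to any gene with a small difference.

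Alternatives were other scalings, filters and tests (DESeq2 1.42.0, limma 3.58.1), a replicate block, a threshold of 0.01 and leaving out libraries. The named genes were the members, the Evc neighbours, other pathway and cilium genes called between TEB and duct, up to 3 with the largest called difference per comparison and direction between cell types, and the genes most like Evc (5) or Ihh, Gli3, Gas1 and Ptch1 (3 each). Some genes that this rule names are not reported here. The members and lists were chosen with earlier results of these data known. Symbols were found for 25275 of 27179 identifiers.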

Additional observations from a re-analysis of the deposited data

How the results depend on the processing

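Between basal TEB and basal duct, the count of members called was 0 with library size alone or a threshold of 0.01, against 1. These settings called 0.328% and 0.443% of all genes, against 1.32%. The count was 0 to 1 when single libraries were left out (0.343% to 2.33% of all genes). Between luminal TEB and luminal duct it was 1 with edgeR's likelihood ratio test (5.79% of all genes) or DESeq2 (7.35%), against 0 (1.41%). It also varied when single libraries were left out. The other pathway genes called between luminal TEB and luminal duct numbered 1, where 1.41% of all genes were called. They numbered 0 with library size alone (0.0576% of all genes), limma voom (2.02%) or voom with quality weights (1.78%). The count was also 0 with only the groups compared (3.92%) or a threshold of 0.01 (0.132%). It was 2 without the filter (1.67%), with the likelihood ratio test (5.79%) or with DESeq2 (7.35%), and varied when single libraries were left out. Between basal TEB and basal duct the other pathway genes called numbered 0, where 1.32% of all genes were called. They numbered 2 with the likelihood ratio test (4.07% of all genes) or DESeq2 (5.03%), and 1 with voom (3.46%) or voom with weights (2.37%). They numbered 0 to 1 when single libraries were left out (1 without basal duct replicate 3, with 1.48% of all genes). Between basal duct and luminal duct they numbered 6 with voom and quality weights (18.5% of all genes), against 10 (22.3%). The causes were not tested, and leaving out libraries also leaves fewer samples.

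Several differences that were not called changed sign. With library size alone, which moved the median log2 difference of all genes to −0.16 in basal and 0.42 in luminal cells, Evc was at −0.10 and Smo at −0.081 in basal TEB against duct, Grk2 at 0.30 in luminal TEB against duct, and Boc at −0.23 for the difference of the changes. Evc in basal cells was also at −0.065 with voom and weights, and Ptch1 there at 0.081 with voom. When libraries were left out, singly or as the pair with the highest mitochondrial shares, Evc ranged from −0.094 to 0.21, Ptch1 from −0.69 to 0.36 and Smo from −0.13 to 0.21 in basal cells, Smo from −0.050 to 0.44 in luminal cells, and the difference of the changes from −0.38 to 0.095 for Smo and −0.12 to 0.67 for Boc.

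Whether a replicate number marks a shared mouse pool is not given in the sources used here. Deviations of same-numbered libraries had r from −0.07 to 0.16 over 15 pairs, of which 4 passed 0.1. Differently numbered ones had r from −0.16 to 0.14 over 30 pairs, of which 2 passed 0.1. Both of these 2 involved luminal duct replicate 3, and in a group of 2 libraries the deviations are opposite by construction. A larger share of same-numbered pairs passed 0.1, and the values do not settle whether pools were shared. The main fit did not treat the libraries as paired, and its p-values take no account of any shared pools. With the replicate number as a block, Gas1 in basal TEB against duct was at −1.75 (adjusted p = 0.00608), 1 member was called there as without the block, and Cep290 was not called in luminal TEB against duct (adjusted p = 0.0560) or between basal and luminal duct (adjusted p = 0.0986). The block changed no other call of a named gene. For Ihh and Gli2 a difference was not detectable at these counts, Gli1 was not tested, and luminal duct had only 2 libraries.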
